A study of Anopheles gambiae with 6 samples.

Results

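The transcripts described here are those that the array measured at both a UTR and a coding (CDS) stretch. The members were chosen from the identifiers alone: a transcript stem, which is the chromosome arm, number and variant at the start of an identifier, was taken when it had at least 1 probe set marked UTR and at least 1 marked CDS. This gave 671 stems of 16020 Anopheles stems (4.19%), with 674 UTR and 675 CDS probe sets. In 664 of them there was 1 of each kind, and 7 had 3 probe sets. The question was whether the ends of one transcript differed alike between tissues.

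RNA was taken from untreated 4th-instar larvae of Anopheles gambiae strain G3, a vector of malaria. Salivary glands were dissected from 50 larvae per pool and compared with pools of 200 whole larvae, with 3 pools and 3 Affymetrix arrays per tissue. The pools are called biological repeats by the submitters, and whole larvae still contain the gland. In pools of tissue, fewer cells of a type and less RNA per cell cannot be told apart. The files pair no identifier with a gene, so neither the genes nor salivary gland markers could be named, and stems are given by identifier. The arrays are log2 values of RMA, a method that merges the probes of a set into 1 value.

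A messenger RNA carries its protein code in the CDS, flanked by untranslated regions (UTRs). The 3′ UTR holds sites that govern stability, localisation and translation. Many genes make several 3′ ends by alternative splicing or polyadenylation, and in Drosophila the length of the 3′ UTR is known to differ between tissues, being long in the nervous system and short in testis. The larval salivary gland is a secretory epithelium, built of large polytene cells in flies and mosquitoes. Identifiers do not say whether a UTR is 5′ or 3′. Arrays of this type were labelled from the poly(A) tail, so signal generally falls with distance from the 3′ end.

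Where the ends lie in the brightness range bears on every value below. The median level of their CDS probe sets was 6.80, against 5.80 for the 13385 CDS probe sets of other stems, and that of their UTR probe sets was 6.95, against 8.53 for the 116 UTR probe sets of other stems. A floor was set on each array at the 95th percentile of 290 probe sets with purely numeric identifiers, whose targets the sources used here do not name. It lay at 6.65 ± 0.036 on gland arrays and 6.02 ± 0.075 on whole-larva arrays (SD, n = 3 each). Both ends had means above this numeric floor in both tissues for 265 stems (39.5%). A lower floor, the 95th percentile of 4502 Plasmodium probe sets, lay at 4.14 ± 0.032 on gland arrays and 3.96 ± 0.10 on whole-larva arrays (SD, n = 3 each).

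Across the stems, the UTR was less bright relative to its CDS in gland than in whole larvae. The median UTR minus CDS value was 0.13, 0.15 and 0.14 on the gland arrays, against 0.32, 0.57 and 0.31 on the whole-larva arrays (log2). Every gland array lay below every whole-larva array, and whole-larva replicate 2 stood highest. The UTR was the brighter end in 368, 369 and 358 stems on the gland arrays, against 413, 456 and 391 on the whole-larva arrays. The median over stems of the tissue difference in UTR minus CDS was -0.21 (interquartile range -0.56 to 0.11), and it was below 0 in 455 stems (67.8%). It was -0.12 without whole-larva replicate 2. These are descriptions of the stems, for which no p is given.

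The shift was present at most brightness levels. Its median was -0.18 in 186 stems with a mean level under 6, -0.22 in 160 stems from 6 to 7, -0.23 in 152 from 7 to 8, -0.20 in 135 from 8 to 10 and -0.088 in 38 stems above 10. It was -0.19 in the 398 stems with the brighter UTR and -0.23 in the 273 with the brighter CDS. In the 265 stems above the numeric floor throughout it was -0.17. Within those 265 it was -0.18 in 193 stems with the brighter UTR and -0.055 in 72 with the brighter CDS. By arm it was -0.20 on 2L, -0.23 on 2R, -0.21 on 3L, -0.16 on 3R and -0.28 on X. It was -0.027 in the 10 stems without a placed arm.

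**Figure D1:**
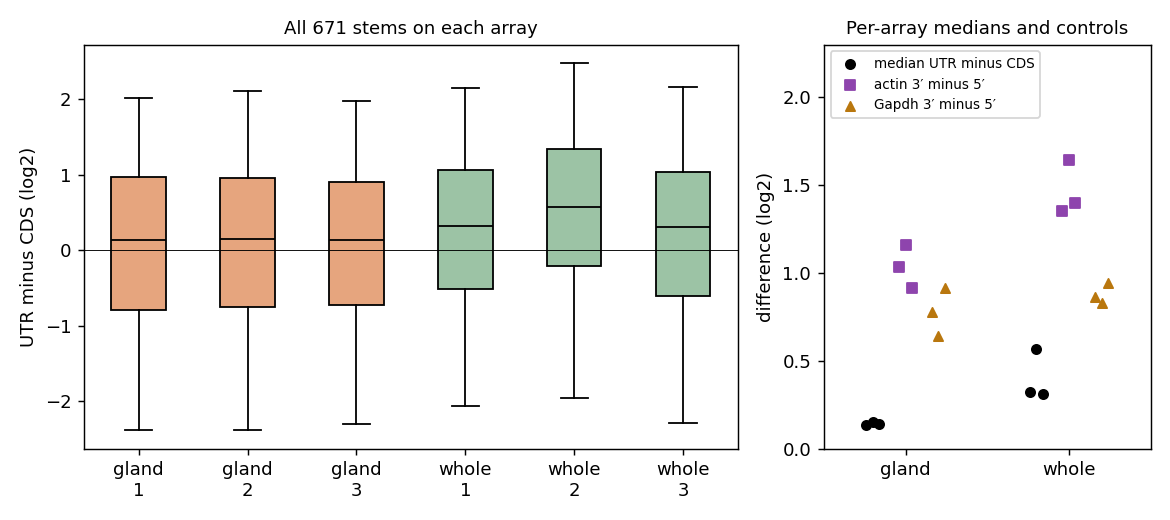
Left, UTR minus CDS (log2) of the 671 stems on each array, 3 gland arrays and 3 whole-larva arrays; boxes span the quartiles with the median as a line, and whiskers reach the 5th and 95th percentiles. Right, the median of each array (circles) beside the 3′ minus 5′ difference of the actin (squares) and Gapdh (triangles) control probe sets; medians were 0.13 to 0.15 in gland and 0.31 to 0.57 in whole larvae.

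The array also carries control probe sets for both ends of 2 transcripts. The 3′ minus 5′ difference of actin, a cytoskeletal protein, was 1.03, 1.16 and 0.91 on the gland arrays, against 1.35, 1.64 and 1.40 on the whole-larva arrays (log2). It was lower on every gland array, and whole-larva replicate 2 again stood highest. That of Gapdh, a glycolytic enzyme, was 0.78, 0.64 and 0.91 in gland, against 0.87, 0.83 and 0.95 in whole larvae, and the tissues overlapped, with whole-larva replicate 2 the lowest of its tissue. The 20 Plasmodium stems with both kinds of probe set, an organism the labels do not mention, had a median UTR minus CDS of -0.20, -0.17 and -0.23 on the gland arrays, against -0.24, -0.15 and -0.23 on the whole-larva arrays. Their median level was 3.22. The part that labelling from the 3′ end played in the shift was not tested.

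Probe sets for UTRs whose stem has no CDS probe set leaned the same way. Those 116 probe sets had a median gland minus whole-larva difference of -0.18, against 0.085 for the 13385 CDS probe sets of stems without a UTR. These sets were unlike in brightness, with median levels of 8.53 and 5.80, and the part this played was not tested. Within the 671 stems the medians were -0.11 for UTR and 0.036 for CDS probe sets.

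The ends of 39 of 671 stems (5.81%) passed a test of differing tissue differences. In 33 of these (4.92%) the UTR minus CDS value was lower in gland, and in 6 (0.894%) it was higher. These passed a limma test on the UTR minus CDS value of each array, at a Benjamini-Hochberg adjusted p under 0.01 over all 671 stems and at least a 2-fold difference. The 33 had a median difference of -1.69 (log2), from -1.11 to -3.71, and the 6 ran from 1.03 to 3.19. At an unadjusted p under 0.05 there were 171 lower and 43 higher. In all 39 the 3 gland values lay apart from the 3 whole-larva values, as they did in 198 of all stems in the lower direction (29.5%) and 55 in the higher (8.20%). Without gland replicate 1, 2 or 3 the counts were 17, 11 and 11 lower and 3, 2 and 2 higher. Of the 39 stems 84.6% were lower; with each array centred on its median UTR minus CDS the split was 28 lower and 12 higher (70% lower). With values raised to the numeric floor of each array it was 7 and 5 (58.3%), and with all values raised to the highest of the 6 floors 5 and 2 (71.4%).

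Over the 671 stems, the tissue differences of UTR and CDS had a Pearson r of 0.825 and a Spearman rho of 0.783, where stems share the same 6 arrays. The median absolute gap between the ends was 0.35 (log2), and 66 stems (9.84%) had a gap of at least 2-fold before any test. The same was measured between 2 CDS probe sets within one stem, which were dimmer, with a median level of 5.27 against 6.91 for the UTR and CDS pairs. In 160 such pairs, 4 of them in the 671 stems, the median absolute gap was 0.33 and 15 (9.38%) reached 2-fold. The same test, fitted and adjusted over these pairs alone, was passed by 8 (5.00%). Of the 8, 7 were lower and 1 higher in gland, taken as the second minus the first probe set by identifier order. At an unadjusted limma p under 0.05, 29 pairs were lower and 13 higher. The shares past the test were 5.81% and 5.00%, and their difference was not tested. In 130 of these pairs a probe set carried the suffix _s_at or _x_at, which marks probes shared between genes. In the 30 without such a suffix the median absolute gap was 0.24 and 1 passed (3.33%). In the 608 UTR and CDS pairs without one these were 0.34 and 41 (6.74%). The 30 and the 608 were each fitted and adjusted on their own, so these counts are not parts of those above.

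**Figure D2:**
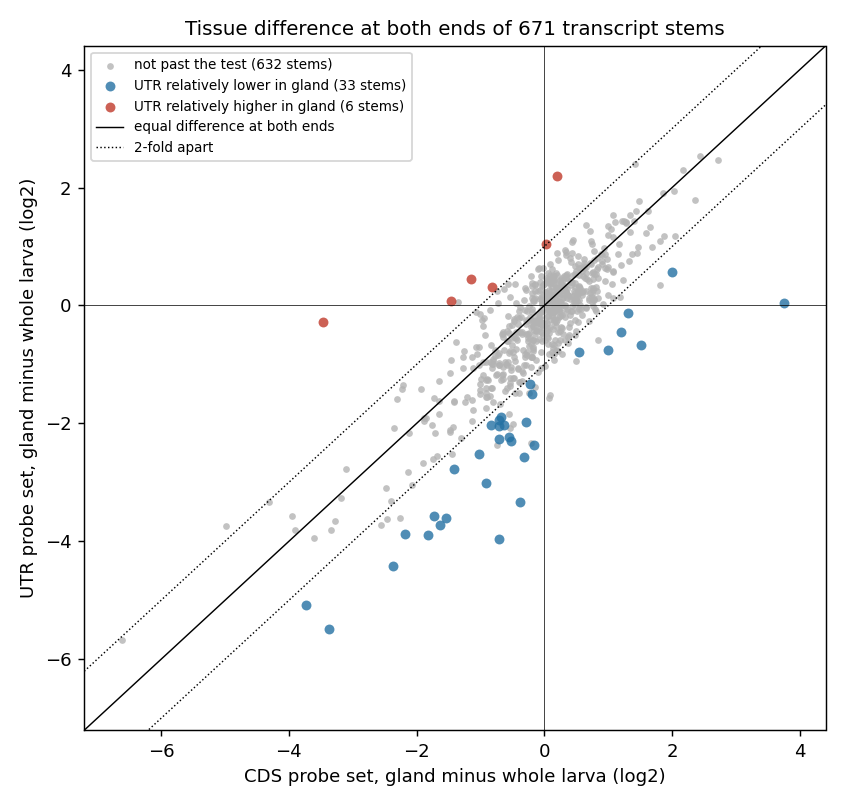
Gland minus whole-larva difference of the CDS probe set (x axis) and of the UTR probe set (y axis) in each of 671 stems, both log2. Stems past the test are blue where UTR minus CDS was lower in gland (33) and red where it was higher (6); the solid line marks equal differences and the dotted lines 2-fold gaps.

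Called one probe set at a time, the ends were never called in opposite directions (0 stems). The calls came from a limma fit over all 16884 Anopheles probe sets, which called 2.39% higher and 4.99% lower in gland. Of the stems' UTR probe sets, 17 were higher (2.52%) and 59 lower (8.75%), and of their CDS probe sets 26 were higher (3.85%) and 44 lower (6.52%). Both ends were called lower in 33 stems and higher in 11. One end alone was called in 58 stems, of which 26 had the UTR lower, 6 the UTR higher, 11 the CDS lower and 15 the CDS higher. Neither end was called in 569.

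A call at one end and a gap between the ends were set side by side. Of the 58 stems with 1 end called, 20 passed the direct test. On simulated data 6 of 25 true 2-fold gaps were called. The rule itself asks for a measured gap of at least 2-fold, so that count reflects the cut-off as well as the noise. A stem that did not pass may still have ends that differ. The 20 were 14 of the 26 with the UTR alone lower, where the median gap was -1.22 and 25 of 26 gaps were below 0, 2 of the 6 with the UTR alone higher, 3 of the 15 with the CDS alone higher and 1 of the 11 with the CDS alone lower. Of the 33 stems with both ends called lower, 6 also passed, each with the UTR lower by more, and of the 11 with both called higher, 0 did. The other 13 stems with differing ends had no call at either end.

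The first kind of stem had a CDS brighter in gland in the means and a UTR that was not called brighter. Ag.3R.776.0, on arm 3R, had the largest gap of all. Its UTR measured 5.66, 6.10 and 6.13 in gland, against 5.97, 5.80 and 6.02 in whole larvae. Its CDS measured 10.51, 10.53 and 10.02 in gland, against 6.33, 7.07 and 6.40 in whole larvae. The CDS was thus 13.5-fold brighter in gland without overlap. The UTR values overlapped and lay under the numeric floor of their array in both tissues, so a change at the UTR could not be read. The UTR minus CDS value differed by -3.71 (SE 0.314, limma adjusted p = 5.44e-05). Over all probe sets, the CDS difference had a limma adjusted p of 1.23e-04 and the UTR difference one of 0.9.

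Ag.2R.689.0, on arm 2R, showed the pattern with both ends above the numeric floor in both tissues. Its UTR measured 8.19, 8.37 and 8.44 in gland, against 8.21, 7.87 and 7.22 in whole larvae. Its CDS measured 9.86, 9.98 and 9.50 in gland, against 7.97, 7.88 and 7.51 in whole larvae. The CDS was 3.99-fold brighter in gland (limma adjusted p = 0.00125) and the UTR 1.49-fold (adjusted p = 0.191), with overlapping UTR values. The ends differed by -1.42 (SE 0.237, limma adjusted p = 0.00248).

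In Ag.3R.215.0 and Ag.3L.172.0 the ends moved in opposite directions in the means, with neither end past the probe set test. For Ag.3R.215.0, bright at both ends, the UTR measured 9.50, 9.74 and 9.89 in gland, against 9.68, 10.98 and 9.80 in whole larvae. Its CDS measured 9.62, 9.94 and 10.36 in gland, against 8.77, 9.05 and 8.47 in whole larvae. The CDS values did not overlap and the UTR values did, and the ends differed by -1.65 (SE 0.262, limma adjusted p = 0.00188).

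For Ag.3L.172.0 the UTR measured 6.31, 6.60 and 6.32 in gland, against 7.02, 7.47 and 6.73 in whole larvae. Its CDS measured 9.75, 9.98 and 10.47 in gland, against 9.02, 8.94 and 7.71 in whole larvae. Every gland array was lower at the UTR and higher at the CDS, and the ends differed by -2.18 (SE 0.298, limma adjusted p = 0.00105). Both of its probe sets carry the suffix _s_at.

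**Figure D3:**
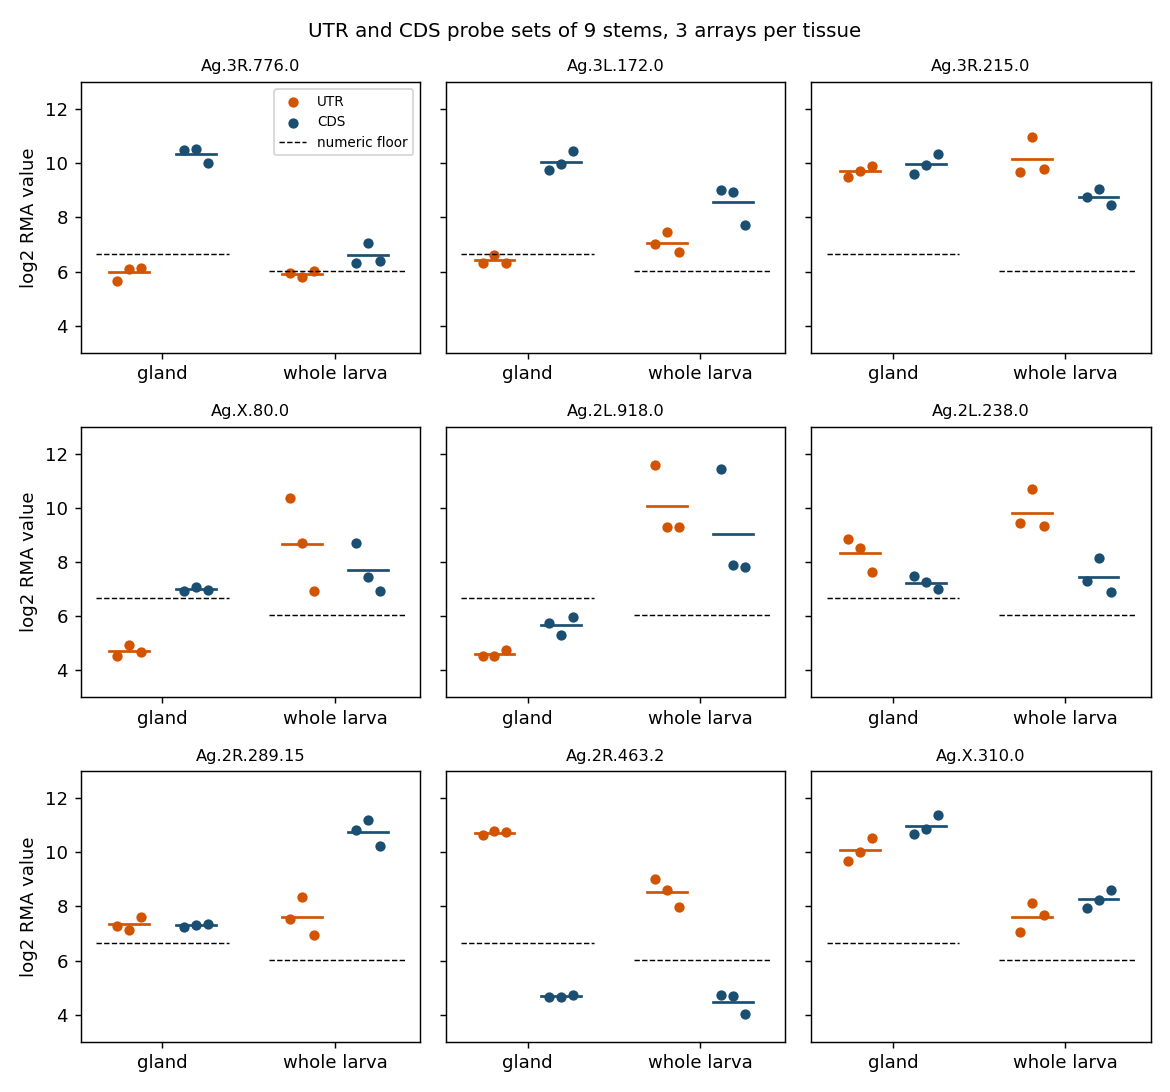
UTR (orange) and CDS (blue) log2 RMA values of 9 stems on the 3 gland and 3 whole-larva arrays; points are arrays, bars are means, and dashed lines are the numeric floor of each tissue. In Ag.3R.776.0 the CDS alone was called higher in gland, and in Ag.X.80.0 the UTR fell under the floor in gland. In Ag.2R.289.15 the CDS alone was called lower in gland, and in Ag.X.310.0 both ends were higher.

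The second and largest kind had a UTR lower in gland beside a CDS that differed less. Over all 33 stems with UTR minus CDS lower in gland, the first kind included, the UTR was lower in gland in 31 and called lower in 20. The CDS was higher in gland in 7, called higher in 3 and called lower in 6. In 27 of the 33 the mean UTR level in gland lay at or under the numeric floor, so these measured folds depend on how dim signal is read. The median levels of the 33 were 5.01 in gland and 7.84 in whole larvae for the UTR, and 6.23 in gland and 7.14 in whole larvae for the CDS.

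Ag.X.80.0, on the X chromosome, had the second largest gap. Its UTR measured 4.51, 4.92 and 4.67 in gland, against 10.38, 8.70 and 6.92 in whole larvae. Its CDS measured 6.92, 7.07 and 6.96 in gland, against 8.70, 7.45 and 6.91 in whole larvae. The UTR was below every whole-larva value in gland and the CDS overlapped. The whole-larva pools differed from each other at both ends in the same order. The ends differed by -3.26 (SE 0.364, limma adjusted p = 2.4e-04).

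Ag.2R.461.0 was alike. Its UTR measured 4.01, 4.21 and 4.07 in gland, against 9.05, 7.34 and 5.87 in whole larvae. Its CDS measured 3.99, 4.20 and 4.20 in gland, against 5.45, 4.10 and 3.99 in whole larvae, so the CDS was dim throughout. The ends differed by -2.95 (SE 0.371, limma adjusted p = 6.65e-04). Ag.X.121.1 differed by -2.25 (SE 0.245, limma adjusted p = 2.4e-04) and also had a dim CDS, with means of 5.02 in gland and 5.33 in whole larvae. Its UTR averaged 5.03 ± 0.18 on gland arrays and 7.60 ± 0.75 on whole-larva arrays (SD, n = 3 each). The CDS of variant Ag.X.121.0 differed by -0.81 between tissues (limma adjusted p = 0.209 over all probe sets), against -0.31 for the CDS of Ag.X.121.1.

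Ag.3R.556.0 had a steady CDS, at 6.76, 6.48 and 6.75 in gland, against 6.86, 6.85 and 6.79 in whole larvae. Its UTR measured 4.58, 4.10 and 3.96 in gland, against 7.01, 7.04 and 5.70 in whole larvae. The ends differed by -2.20 (SE 0.340, limma adjusted p = 0.00182), but the UTR lay under the numeric floor on every gland array, and with all values raised to the highest floor of the 6 arrays the gap was -0.13.

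Ag.2L.238.0 kept both ends above the floor. Its UTR measured 8.86, 8.51 and 7.62 in gland, against 9.45, 10.69 and 9.34 in whole larvae. Its CDS measured 7.47, 7.24 and 7.00 in gland, against 7.28, 8.13 and 6.89 in whole larvae. The UTR alone did not overlap between tissues, and the ends differed by -1.30 (SE 0.245, limma adjusted p = 0.00526). The difference missed the threshold without each array in turn except whole-larva replicate 1 (largest adjusted p 0.0269, without gland replicate 3), and with arrays centred on their median UTR minus CDS (adjusted p = 0.0127).

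In the remaining named stems of this direction both ends were lower in gland, the UTR by more. Ag.2L.918.0 averaged 4.58 ± 0.13 on gland arrays and 10.06 ± 1.34 on whole-larva arrays at the UTR (SD, n = 3 each). At the CDS it averaged 5.67 ± 0.34 on gland arrays and 9.04 ± 2.07 on whole-larva arrays (SD, n = 3 each). Whole-larva replicate 1 stood far above the other whole-larva pools, at 11.61 for the UTR and 11.43 for the CDS. The ends differed by -2.11 (SE 0.332, limma adjusted p = 0.00182).

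Ag.2L.3.0 measured 4.37, 4.41 and 4.64 in gland at the UTR, against 8.98, 8.89 and 6.73 in whole larvae. At the CDS it measured 4.47, 4.75 and 4.84 in gland, against 6.86, 6.48 and 5.60 in whole larvae. Both ends were called lower, and they differed by -2.10 (SE 0.310, limma adjusted p = 0.00162).

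Several of these calls were lost without 1 gland array while the gaps moved little. Without gland replicate 3 the gap was -1.55 (limma adjusted p = 0.0187) for Ag.3R.215.0, -2.03 (0.0181) for Ag.3R.556.0, -2.03 (0.0181) for Ag.2L.918.0 and -2.11 (0.0145) for Ag.2L.3.0. Without gland replicate 1 it was -1.31 (0.0233) for Ag.2R.689.0. Ag.3R.215.0 also missed the threshold without gland replicate 1 or 2, Ag.3R.556.0, Ag.2L.3.0 and Ag.2R.689.0 without gland replicate 2, and Ag.2L.918.0 without gland replicate 1. Ag.3R.776.0, Ag.X.80.0, Ag.2R.461.0, Ag.X.121.1 and Ag.3L.172.0 passed without each array in turn.

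The UTR varied more than the CDS between whole-larva pools in 417 of the 671 stems (62.1%) and between gland pools in 378 (56.3%). The median SD was 0.178 in gland and 0.415 in whole larvae for the UTR, and 0.162 in gland and 0.315 in whole larvae for the CDS. Among the 33 stems with UTR minus CDS lower in gland, the whole-larva SD was larger than over all stems, at a median of 0.723 for the UTR and 0.532 for the CDS. Developmental stage within the 4th instar was not given for the pools.

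In 6 stems the UTR minus CDS value was higher in gland. Ag.2R.289.15, on arm 2R, was the clearest and the only one with both ends above the numeric floor in both tissues. Its UTR measured 7.27, 7.14 and 7.61 in gland, against 7.55, 8.36 and 6.94 in whole larvae. Its CDS measured 7.22, 7.31 and 7.37 in gland, against 10.85, 11.21 and 10.25 in whole larvae. The CDS was 11.1-fold less bright in gland without overlap, while the UTR overlapped. The ends differed by 3.19 (SE 0.218, limma adjusted p = 1.24e-05).

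Other variants of the same number were measured too. The CDS of Ag.2R.289.0 differed by -3.34 and its UTR by -3.81 (limma adjusted p = 3.66e-04 and 1.03e-04 over all probe sets), close to the -3.47 of the Ag.2R.289.15 CDS. The UTR of Ag.2R.289.15 differed by -0.28, and the CDS of Ag.2R.289.16 by 0.42. The CDS probe sets of Ag.2R.289.0 and Ag.2R.289.15 carry the suffix _a_at and the UTR probe set of Ag.2R.289.0 the suffix _s_at. The UTR probe set of Ag.2R.289.15 and the CDS probe set of Ag.2R.289.16 carry neither. Whether any of these probe sets share targets was not tested, so the CDS value of Ag.2R.289.15 may not be that of this variant alone. Among the stems described here, 285 had a CDS probe set with the suffix _a_at and 275 a UTR probe set with it. The plain suffix _at stood at both ends in 323 stems. Of these, 15 passed the test of the gap as lower in gland and 2 as higher (5.26%). Their median tissue difference in UTR minus CDS was -0.23.

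Ag.2R.463.2 had the opposite makeup, with a UTR brighter in gland over a dim CDS. Its UTR measured 10.63, 10.78 and 10.77 in gland, against 9.01, 8.62 and 7.97 in whole larvae. Its CDS measured 4.64, 4.65 and 4.74 in gland, against 4.73, 4.68 and 4.02 in whole larvae. The UTR was 4.58-fold brighter in gland (limma adjusted p = 0.00218), and the ends differed by 1.99 (SE 0.207, limma adjusted p = 2.1e-04). The CDS of variant Ag.2R.463.0 rose with the UTR, by 1.71 (limma adjusted p = 0.00127). The CDS probe sets of Ag.2R.463.1 and Ag.2R.463.3 differed by 0.43 and -0.24. The UTR probe set carries the suffix _s_at.

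The other stems with UTR minus CDS higher in gland rested on smaller changes at dim ends. Ag.2L.1001.0 measured 6.35, 6.36 and 6.42 in gland at the UTR, against 5.88, 6.06 and 5.83 in whole larvae. At the CDS it measured 5.33, 5.13 and 4.94 in gland, against 5.95, 6.75 and 6.15 in whole larvae. The ends moved apart in the means without overlap, by 1.59 (SE 0.239, limma adjusted p = 0.00162), and neither was called alone. It missed the threshold without gland replicate 2 or 3 (limma adjusted p = 0.0114 and 0.0147). The CDS of variant Ag.2L.1001.2 differed by 0.11 between tissues (limma adjusted p = 0.707 over all probe sets), against -1.15 for the CDS of Ag.2L.1001.0.

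Ag.2L.168.0 and Ag.2R.492.0 had a CDS less bright in gland over a UTR under the numeric floor in both tissues, with gaps of 1.52 (limma adjusted p = 0.00919) and 1.13 (adjusted p = 0.00584). In Ag.2L.290.0 the UTR was 2.07-fold brighter in gland, with 6.48, 6.40 and 6.34 in gland and 5.21, 5.34 and 5.53 in whole larvae. Its CDS measured 4.51, 4.63 and 4.52 in gland, against 4.42, 4.37 and 4.79 in whole larvae, and the gap was 1.03 (limma adjusted p = 0.00582). These 3 each missed the adjusted p or the 2-fold limit in 5 of the 6 fits that left out 1 array, with adjusted p up to 0.0534.

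How far the gaps depend on dim signal was measured by raising every value under 6.69, the highest numeric floor of the 6 arrays, to it on all arrays. One floor was used because the floors of the tissues lie 0.63 apart. Of the 33 stems with UTR minus CDS lower in gland, 17 kept a gap of at least 2-fold in that direction, and the median gap of the 33 became -1.0. Of the 6 higher ones, 2 kept it, Ag.2R.289.15 at 3.19 and Ag.2R.463.2 at 2.20. Ag.3R.776.0 kept -3.54 of -3.71, Ag.X.80.0 kept -1.27 of -3.26 and Ag.2R.461.0 kept -1.0 of -2.95. The UTR of Ag.3R.776.0 and the CDS of both Ag.2R.461.0 and Ag.2R.463.2 lay under this floor on every array. Their floored gaps thus hold the difference of the brighter end alone, and cannot show what the dim end did. The 17 were not split by whether 1 end lay under the floor throughout. Ag.3R.215.0, Ag.2R.689.0, Ag.2L.238.0 and Ag.2R.289.15 lay above this floor on every array and did not move. Among the 265 stems with both ends above the numeric floor in both tissues, 3 of the 33 lower and 1 of the 6 higher stems were found, and a test adjusted over those 265 alone gave 6 lower and 1 higher.

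**Figure D4:**
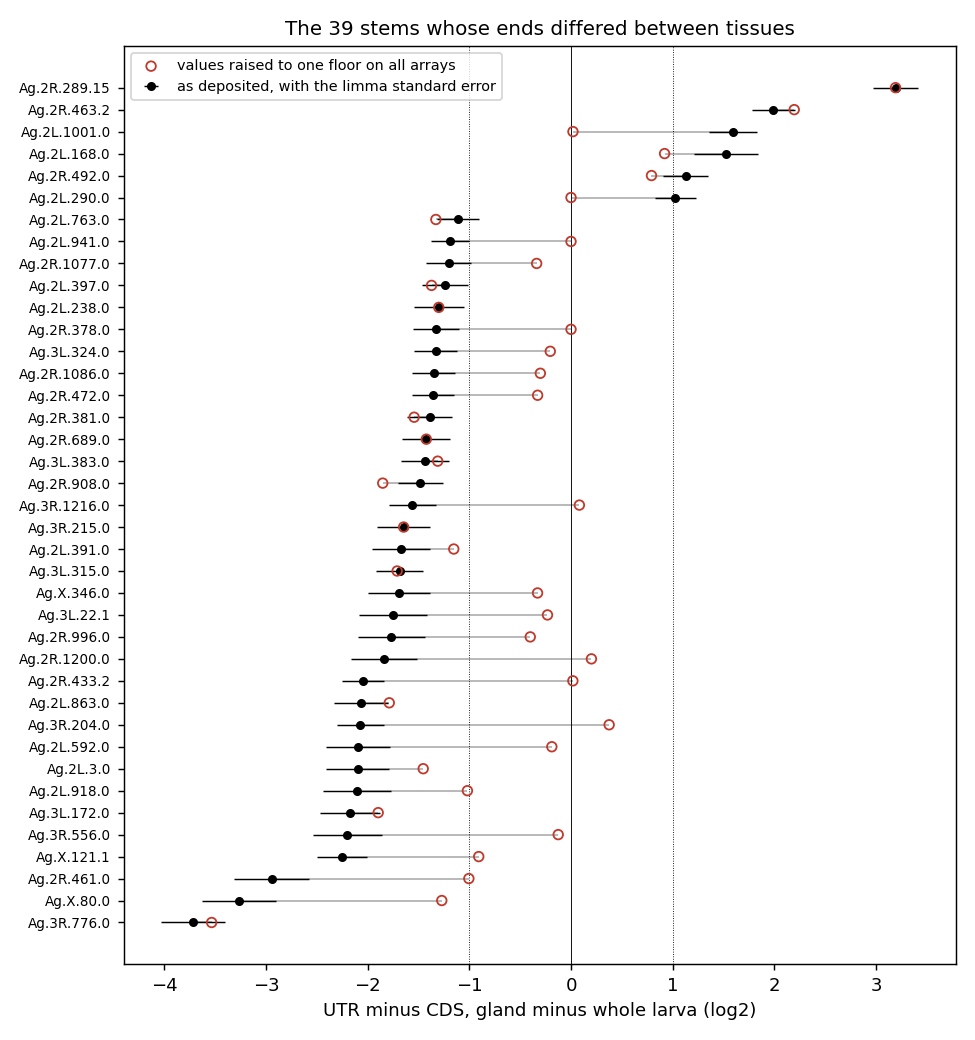
UTR minus CDS, gland minus whole larva (log2), of the 39 stems past the test: filled points are the deposited values with the limma standard error, and open circles the same difference with values raised to 6.69, the highest numeric floor, on all arrays. Of the 33 negative stems 17 stay at -1 or below and of the 6 positive stems 2 stay at 1 or above; dotted lines mark 2-fold.

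Of the 44 stems with both ends called alike, 38 did not pass the test of the gap. Ag.3R.169.0 measured 4.61, 3.74 and 5.01 in gland at the UTR, against 9.78, 10.61 and 9.95 in whole larvae. At the CDS it measured 7.23, 6.14 and 6.67 in gland, against 13.25, 13.45 and 13.17 in whole larvae. The UTR differed by -5.66 and the CDS by -6.61, and the gap between them, 0.94, did not pass (limma adjusted p = 0.0415). It passed with centred arrays (1.20, adjusted p = 0.00944) and with values raised to the highest floor (2.99, adjusted p = 0.00656). Its gland UTR lay under the numeric floor and its gland CDS near it.

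Ag.2R.308.0 differed by -3.81 at the UTR and -3.90 at the CDS, a gap of 0.091 (SE 0.320, limma adjusted p = 0.882). Some of its values lay under the highest numeric floor. With values raised to that floor its gap became 1.22 (limma adjusted p = 0.135). Among the stems higher in gland, Ag.X.310.0 measured 9.70, 10.02 and 10.54 in gland at the UTR, against 7.06, 8.11 and 7.70 in whole larvae. At the CDS it measured 10.69, 10.88 and 11.39 in gland, against 7.95, 8.25 and 8.60 in whole larvae. No value overlapped at either end, and the gap was -0.26 (SE 0.239, limma adjusted p = 0.505). Ag.3R.380.0 was 5.81-fold brighter in gland at the UTR and 5.38-fold at the CDS, with a gap of 0.11 (SE 0.230, limma adjusted p = 0.783).

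Stems with differing ends were found on all 5 placed arms. There were 9 lower and 3 higher among 142 stems on 2L (8.45% in both directions), and 11 and 3 among 201 on 2R (6.97%). On 3L there were 5 lower among 105 (4.76%), on 3R 5 among 156 (3.21%) and on X 3 among 57 (5.26%), with 0 higher on these arms. The 10 unplaced stems had 0. The differences between arms were not tested.

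The stems shared features that the identifiers show. They had low numbers within each arm, with a median of 455.5 against 1457 over all stems on 2L, 746 against 1890 on 2R, and 164 against 596 on X. Of the 671, 648 were variant 0, but the share of variant 0 over all stems is not given here. They made up 5.22% of stems on 3R, 4.81% on 2R and 0.528% of unplaced stems.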

How the data were processed

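The authors deposited 1 table of log2 values for 22761 rows and 6 arrays; per the submitters' processing notes they were made with RMA. The log2 scale was taken from the range. The version and settings of RMA, and the probe definitions, are not stated in these sources. RMA sets no detection call. All 6 value columns were used.

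Each stem was given 1 UTR and 1 CDS value per array, from probe sets without the suffix _s_at or _x_at where there were any, and averaged in 4 stems. UTR minus CDS was fitted with limma 3.58.1 in R 4.3.3 (lmFit, eBayes with a variance trend on the mean level of both ends), with a single tissue term and p-values adjusted by Benjamini-Hochberg over 671 stems. The probe set fit covered 16884 rows with the same model, thresholds of adjusted p under 0.01 and 2-fold, and the brighter tissue above the Plasmodium floor on its 3 arrays. For the p-values, the variance between 3 pools per tissue was drawn toward the trend over all rows of the fit. They thus do not measure the spread of a single stem alone. The equal-variance test, which uses that spread alone, called 0 stems lower and 0 higher. The number of pools limits precision. No source names a batch.

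Members, lists, floors and rules were chosen with earlier results of these data known. Named stems are the 8 largest gaps per direction with non-overlapping arrays, up to 4 per direction with both ends above the numeric floor, and 2 per direction with both ends called alike and the largest smaller difference. Other stems are named only as variants of these.

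On simulated data for UTR minus CDS over 671 stems, 0, 6, 22 and 24 of 25 stems changed by 1.5-, 2-, 4- and 8-fold were called, and 0 of 571 unchanged ones. Same-numbered arrays of both tissues did not deviate together (r of UTR minus CDS deviations 0.089, -0.0091 and 0.058), so the numbers were not used as pairs. Of the 671 stems, 0 matched an entry of the RefSeq gene table. The plots used matplotlib 3.10.9 under Python 3.11.15.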

Additional observations from a re-analysis of the deposited data

How the results depend on the processing

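The main values were 33 stems with UTR minus CDS lower and 6 higher in gland, UTR probe sets 59 lower and 17 higher, CDS probe sets 44 lower and 26 higher, 44 stems with both ends called alike, 58 with 1 end and 569 with neither, and a median gap of -0.21. Under the equal-variance test of the series' design with Benjamini-Hochberg adjustment, 0 stems were lower and 0 higher (132 and 36 at an unadjusted p under 0.05), UTR probe sets were 4 and 1, CDS probe sets 6 and 2, 1 stem had both ends called and 11 had 1. Centring each array on its median UTR minus CDS gave 28 lower and 12 higher, so the lower share became 70.0% in place of 84.6%; repeated quantile normalization gave 51 lower and 6 higher (89.5%), with 43 UTR and 55 CDS probe sets higher. Raising values to the numeric floor gave 7 lower and 5 higher (58.3%), 32 UTR and 42 CDS probe sets higher, 68 stems with both ends called and a median of -0.083. That setting moved the median of all probe sets to 0.63, since the floor is higher on gland arrays, and stems whose own values were unchanged lost their call because the variance model and adjustment run over all stems. Raising all values to one floor, added after the data were seen, gave 5 lower and 2 higher, UTR probe sets 12 and 3, CDS probe sets 11 and 8, 8 stems with both ends called, 18 with 1 and a median of -0.0075. Among 351 stems with both ends above the numeric floor in at least 1 tissue 25 were lower and 1 higher. Among 265 with means above it in both tissues, also added later, there were 6 and 1. The 351 were not chosen by means, as Ag.2L.3.0, with whole-larva means above the floor at both ends, was not among them. At adjusted p under 0.05 with no fold limit there were 88 lower and 15 higher, UTR probe sets 128 and 53, CDS probe sets 88 and 85, 108 stems with both ends and 138 with 1. At 4-fold there were 12 lower and 1 higher, UTR probe sets higher 5, CDS probe sets 21 and 7, 20 stems with both ends and 34 with 1.

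With replicate number as a replicate block, 39 stems were lower and 6 higher, 9 UTR and 14 CDS probe sets were higher and 38 stems had 1 end called; of the named stems Ag.2L.290.0 alone lost its call. Leaving out 1 array gave 11 to 47 lower and 2 to 7 higher stems, 23 to 90 lower and 3 to 19 higher UTR probe sets, 17 to 49 lower and 8 to 28 higher CDS probe sets, 17 to 55 stems with both ends, 17 to 76 with 1 and 549 to 637 with neither, and a median of -0.26 to -0.12. Opposite calls stayed at 0 in every fit run. Of the named stems past the test, Ag.3R.556.0 alone changed sign, to 0.045 with values raised to the floor of each array. Among stems whose gap was not called, Ag.2R.308.0 changed sign under repeated quantile normalization (-0.014), array weights (-8.1e-04) and without gland or whole-larva replicate 3 (-0.25 to 0.40 over arrays left out), Ag.3R.380.0 without whole-larva replicate 3 (-0.075 to 0.23) and with one floor (-0.018), and Ag.X.310.0 with centred arrays (0.0040). A variance trend on the UTR minus CDS value, added after the data were seen, gave 34 lower and 4 higher. Where no cause is given, it was not tested.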
